A study of Mus musculus with 12 samples.

Results

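The Rab GTPases are small GTP-binding proteins that mark membrane compartments and direct vesicles between them. The genes were taken as all those whose symbol is Rab followed by a number and an optional letter, which gave 59 of the 23185 genes with 1 symbol on the array. A Rab protein cycles between a GTP-bound form on membranes, which binds effector proteins that tether or move a vesicle, and a GDP-bound form that guanine nucleotide dissociation inhibitors (GDI proteins) keep soluble. Guanine nucleotide exchange factors switch it on and GTPase-activating proteins switch it off. In fat cells, insulin acts through Akt on the GTPase-activating protein AS160 (Tbc1d4), which lets Rab10 carry vesicles holding the glucose transporter GLUT4 (Slc2a4) to the cell surface.

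RNA came from abdominal fat of 12 mice aged 12 weeks, all BKS.Cg-Dock7m +/+ Leprdb/J. This strain has no functional leptin receptor and develops obesity and diabetes, controls included. The label WT of the control group refers to no knockdown. Each mouse was given adenovirus carrying short hairpin RNA (shRNA), and fat was frozen 1 week later. Control mice received 4e9 plaque-forming units (pfu) of control shRNA virus. The LCN13 group received 2e9 pfu of LCN13 shRNA virus with 2e9 pfu of control virus, and the TSC22D4 group 2e9 pfu of TSC22D4 shRNA virus with 2e9 pfu of control virus. The combined group received the LCN13 and TSC22D4 viruses at 2e9 pfu each, without control virus. Every comparison with control therefore pairs a gene-directed virus with less control virus, and these cannot be told apart. The same holds for the combined group against the LCN13 or the TSC22D4 group. It also holds for the effect of each shRNA averaged over both states of the other. The LCN13 and TSC22D4 groups received equal amounts of control virus. Each group had 7 animals, of which the submitters chose 3 as representative for arrays. The comparisons ask whether Rab genes differ with either shRNA and whether one shRNA alters the difference seen with the other.

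All values are log2 expression after RMA (robust multi-array average), so a difference of 1 is a doubling, and the number of arrays limits the precision. Across all genes they spanned 5.62 to 14.38 (median 6.31). Of the shRNA targets, Tsc22d4 was not detectably lower in this tissue. It differed from control by -0.01 in the TSC22D4 group (limma adjusted p = 0.989) and by -0.07 in the combined group (adjusted p = 0.888). Lcn13, listed as Obp2a, lay between 5.71 and 5.79 on every array, control arrays included. These values are near the lower end of the scale, so a fall of Lcn13 could not be seen. Adipocyte markers were high throughout, with Adipoq (adiponectin) between 12.20 and 12.45 and Fabp4 between 13.94 and 14.11. LCN13 arrays 5 and 6 stood apart in mesothelial and epithelial markers, whose mean over 12 genes was 0.58 and 0.62 above the 12-array mean, against 0.00 or lower on the other 10 arrays. Of 26 interferon-stimulated genes measured, 24 fell in each group against control (limma adjusted p under 0.05). Such a p, in either direction, was found for 1.17%, 1.44% and 1.34% of all genes with TSC22D4, LCN13 and both shRNAs.

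Most Rab genes lay above the middle of the gene levels, which is itself near the lower end of the scale. The 12-array mean was above the median gene mean of 6.36 for 45 of the 59 genes (76.3%), and the means ran from 5.80 to 13.52. Above that level, the median residual SD between arrays of a group was 0.097 for Rab genes and 0.104 for all genes. Against control, the median difference over the 59 genes was 0.02 with the TSC22D4 shRNA, 0.01 with the LCN13 shRNA and 0.00 with both, beside 0.00 for all genes in each case. In each of these comparisons 1 Rab gene passed the test (limma, Benjamini-Hochberg adjusted p under 0.05 over all genes), Rab10, which was higher, where 1.17%, 1.44% and 1.34% of all genes passed. In the interaction 1 Rab gene passed, Rab11b, which was lower, where 0.397% of all genes passed. The other 57 Rab genes passed in none of the 9 comparisons nor in the F test over 4 groups. An unadjusted p under 0.05 was reached by 9 Rab genes (15.3%) with TSC22D4, 8 (13.6%) with LCN13 and 11 (18.6%) with both shRNAs against control, beside 11.8%, 12.6% and 11.0% of all genes. All 3 arrays of the group lay above all 3 control arrays for 7 Rab genes with TSC22D4, 7 with LCN13 and 8 with both shRNAs, beside 8.27%, 8.75% and 7.72% of all genes. They lay below for 0, 3 and 1 Rab genes, beside 8.38%, 6.93% and 7.22% of all genes. Rab2a and Rab10 were above control in all 3 groups, which share the control arrays. Across the 9 comparisons and the F test, 24 Rab genes had an unadjusted p under 0.05 at least once and 35 never did.

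The sequences upstream of Rab10 and Rab11b, the genes that passed, are shown for the gene context of the values that follow. Each line gives the 250 bases before the RefSeq start of the gene on GRCm38.p6, 5′ to 3′ on the gene's strand, and capitals mark matches to the motifs searched. Rab10 lies on the minus strand and its window is chr12:3309970-3310219. Rab11b lies on the minus strand and its window is chr17:33760487-33760736.
Rab10: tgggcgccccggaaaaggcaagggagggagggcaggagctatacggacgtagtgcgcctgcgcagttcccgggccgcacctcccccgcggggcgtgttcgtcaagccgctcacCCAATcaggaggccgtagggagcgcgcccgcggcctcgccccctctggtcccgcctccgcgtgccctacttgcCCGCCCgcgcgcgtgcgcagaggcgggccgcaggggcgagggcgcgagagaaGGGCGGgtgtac
Rab11b: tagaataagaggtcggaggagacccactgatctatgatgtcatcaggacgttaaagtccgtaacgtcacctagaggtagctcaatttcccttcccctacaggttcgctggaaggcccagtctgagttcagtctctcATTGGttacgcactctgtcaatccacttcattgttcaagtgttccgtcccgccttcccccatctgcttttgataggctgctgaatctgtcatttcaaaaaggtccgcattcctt

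The motifs, searched on both strands, were the GC box (GGGCGG), the CCAAT box (CCAAT), the E box (CACGTG), the cAMP response element (TGACGTCA), an interferon response element (TTTC and TTTC with NN between) and the TATA box (TATAAA). The Rab10 window held 2 GC boxes and 1 CCAAT box and was 74.8% G and C. The Rab11b window held 1 CCAAT box, read on the opposite strand, and was 48.4% G and C. None of the capitalised matches overlap. RefSeq gave windows for 48 of the 59 Rab genes, 60 windows in all, with a median G and C content of 60.2% against 52.4% for all 32851 windows. A GC box was present in 40 of the 60 Rab windows (66.7%) and in 32.7% of all windows, and a CCAAT box in 24 (40.0%) and 33.8%. The interferon response element letters occurred in 1 Rab window (1.67%) and in 2.98% of all windows, and in neither of the 2 windows printed.

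Rab10, the Rab of insulin-driven GLUT4 exocytosis in adipocytes, was higher in all 3 shRNA groups than in control. The control arrays read 11.94, 11.98 and 12.01, and the LCN13 arrays 12.07, 12.12 and 12.17. The TSC22D4 arrays read 12.10, 12.16 and 12.12, and the combined arrays 12.16, 12.15 and 12.13. All 3 control arrays were below all 9 others, a pattern that 1.1% of all genes shared, and the 3 shRNA groups overlapped each other. With the TSC22D4 shRNA the difference was 0.15 (95% CI 0.085 to 0.215, limma adjusted p = 0.0451), or 11.0%. With the LCN13 shRNA it was 0.14 (CI 0.078 to 0.207, limma adjusted p = 0.0487), or 10.4%. In the combined group it was 0.17 (CI 0.107 to 0.236, limma adjusted p = 0.0212), or 12.6%. These comparisons share the control arrays. Between the combined group and the TSC22D4 group Rab10 differed by 0.02 (CI -0.043 to 0.086), and between the combined and the LCN13 group by 0.03 (CI -0.035 to 0.094). The interaction was -0.12 (CI -0.212 to -0.029, limma adjusted p = 0.508). The TSC22D4 difference averaged over both LCN13 states was 0.09 (limma adjusted p = 0.0701, two-sided exact permutation p = 0.0455 with 6 arrays a side, of which 0.00216 is the smallest possible). The LCN13 difference averaged over both TSC22D4 states was 0.08 (limma adjusted p = 0.110, two-sided exact permutation p = 0.0714). The permutations exchanged all 12 arrays without regard to the other shRNA. They were run for Rab10 alone, and their p is not adjusted for the number of genes.

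The Rab10 calls lie close to the threshold. Leaving out any 1 of 10 arrays (all but LCN13 5 and 8) raised the adjusted p of the TSC22D4 comparison to between 0.0628 and 0.149, and leaving out any array but LCN13 5 raised that of the LCN13 comparison to between 0.0563 and 0.143. The combined group's call was lost without control 1, control 2 or any of its own 3 arrays (adjusted p 0.0539 to 0.093), and all 3 calls were lost when dim genes were left out (0.157, 0.173 and 0.109). Without LCN13 arrays 5 and 6 the LCN13 difference was 0.19 (adjusted p = 0.103). Interferon-stimulated genes went the opposite way to Rab10. Their mean over 26 genes, relative to the 12-array mean, was 1.31 to 1.62 on control arrays and -0.68 to -0.31 on the 9 others. Macrophage markers (14 genes) lay at 0.03 to 0.38 on control arrays and -0.19 to 0.10 on the others. Of the 14, 1 passed in each shRNA group, Fcgr1, which was lower. The median difference from control over the 14 was -0.12, -0.22 and -0.17 with TSC22D4, LCN13 and both shRNAs. The highest of the 14 stood at 0.29, -0.015 and 0.12. An unadjusted p under 0.05 was reached by 4, 6 and 6 of them, beside 11.8%, 12.6% and 11.0% of all genes. Of 12 T and NK cell markers, 1 passed in each group, Gzmb (granzyme B), which differed from control by -0.33, -0.43 and -0.39 with TSC22D4, LCN13 and both shRNAs (limma adjusted p 0.0401, 0.00851 and 0.0142). The 12 did not move together. They ran from -0.33 to 0.32, -0.72 to 0.05 and -0.55 to 0.11 in these groups, with medians of -0.01, -0.05 and -0.05. The NK cell marker Ncr1 stood at 0.32, -0.51 and 0.11 (limma adjusted p 0.386, 0.130 and 0.899). Des, of the 10 muscle markers, was higher with TSC22D4 (0.30, limma adjusted p = 0.0126) and LCN13 (0.36, 0.00398) and stood at 0.21 with both (0.0685). The 10 went both ways, from -0.11 to 0.30, -0.33 to 0.46 and -0.15 to 0.21 with TSC22D4, LCN13 and both shRNAs. Of 9 mast cell markers, 1 passed in the combined group, Hdc, which was lower (-0.56, limma adjusted p = 0.0322). The 9 ran from -0.56 to 0.23 there, with a median of -0.02. Fibroblast and preadipocyte markers (9 genes) had median differences from control of 0.18, 0.16 and 0.16 with TSC22D4, LCN13 and both shRNAs. Of these, 0 passed. With TSC22D4 they ran from -0.18 to 0.42, and the lowest was 0.02 with LCN13 and with both. Their mean lay at -0.31 to 0.00 on control, 0.02 to 0.09 on LCN13, -0.13 to 0.08 on TSC22D4 and 0.01 to 0.11 on combined arrays. The part of these marker and interferon-stimulated genes in the Rab10 difference was not tested. Adipocyte markers (13 genes) lay between -0.09 and 0.09 in every group. In bulk tissue, fewer cells of a type and less RNA per cell cannot be told apart. The antisense transcript Rab10os, which has a probe set of its own, differed from control by -0.11, -0.20 and -0.11 in the TSC22D4, LCN13 and combined groups and passed in none (limma adjusted p 0.142 or higher).

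**Figure D1:**
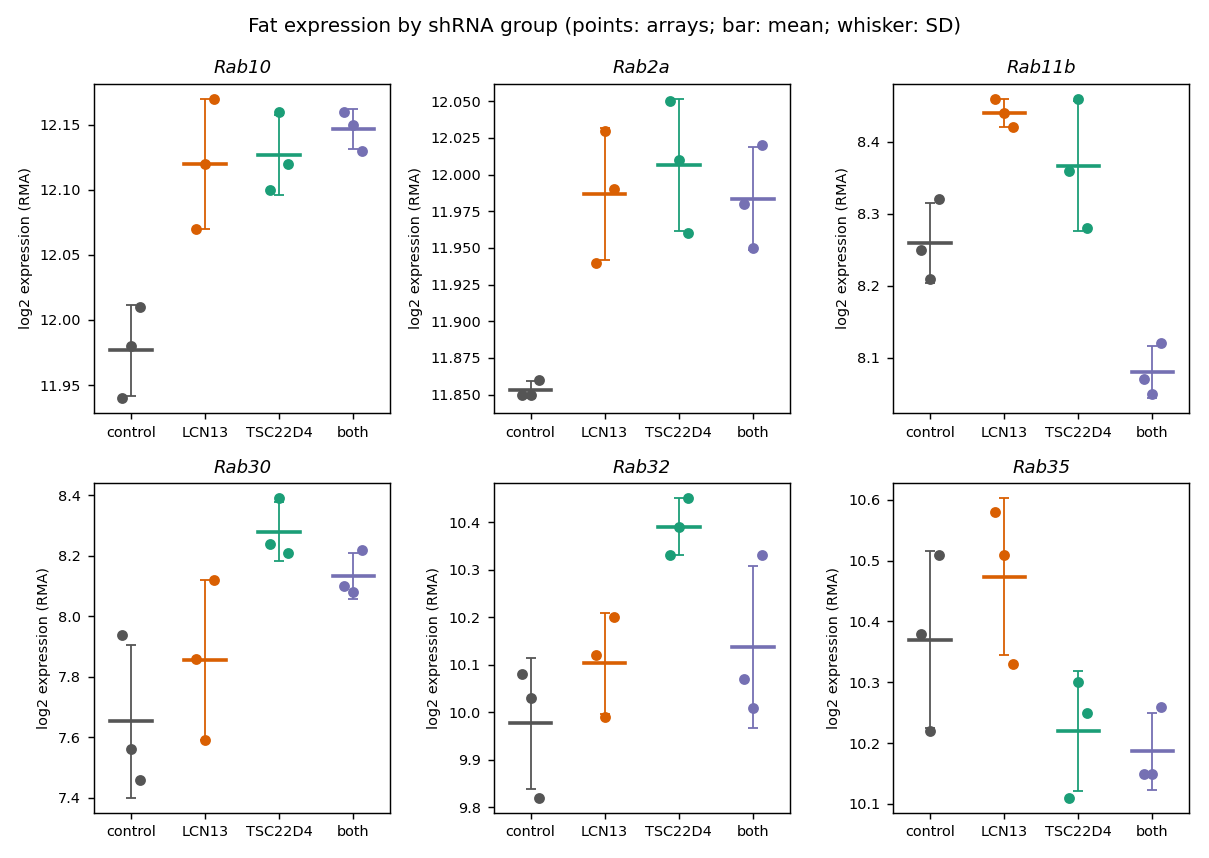
Log2 expression (RMA, y axis) of 6 Rab genes on each array (points), with the mean (bar) and SD (whisker) of the 3 arrays of the control, LCN13, TSC22D4 and combined (both) groups. The control arrays of Rab10 (11.94 to 12.01) and Rab2a (11.85 to 11.86) lie below all 9 others, and the combined arrays of Rab11b (8.05 to 8.12) lie below all 9 others.

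Rab2a, which acts between the endoplasmic reticulum and the Golgi and in autophagy, showed values of similar size without passing. Its control arrays read 11.85, 11.85 and 11.86, and the LCN13 arrays 11.94, 12.03 and 11.99. The TSC22D4 arrays read 12.05, 12.01 and 11.96, and the combined arrays 11.98, 11.95 and 12.02. The control arrays again lay below all 9 others, and the shRNA groups overlapped. The differences from control were 0.15 (limma adjusted p = 0.0511), 0.13 (0.0787) and 0.13 (0.0893) with TSC22D4, LCN13 and both shRNAs. The first passed in some other settings, with an adjusted p of 0.0279 with array weights and 0.047 after median centring. Of the 12 fits that left out 1 array, it passed in only 2 (adjusted p up to 0.167). The Rab2a paralogue Rab2b differed by 0.23, 0.04 and 0.25 (limma adjusted p 0.311 or higher).

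Rab11b, a paralogue of the recycling endosome marker Rab11a, carried the interaction. The control arrays read 8.25, 8.21 and 8.32, and the LCN13 arrays 8.46, 8.44 and 8.42. The TSC22D4 arrays read 8.36, 8.46 and 8.28, and the combined arrays 8.07, 8.05 and 8.12. The combined arrays were below all 9 others, a pattern found for 0.574% of all genes, while the LCN13 arrays were all above control and the TSC22D4 arrays overlapped with both control and LCN13 arrays. The interaction, the combined minus the LCN13 group, less the TSC22D4 minus the control group, was -0.47 (SE 0.0627, 95% CI -0.607 to -0.326, limma adjusted p = 0.0148). Only 0.0302% of all genes were called lower in the interaction, Rab11b among them. Without the LCN13 shRNA, the TSC22D4 group differed from control by 0.11 (limma adjusted p = 0.385). In its presence, the combined group differed from the LCN13 group by -0.36 (CI -0.460 to -0.260, limma adjusted p = 0.0523), which passed without LCN13 8, TSC22D4 12 or control 3 (0.0379, 0.0432 and 0.0418). Against control the LCN13 group stood at 0.18 (limma adjusted p = 0.102) and the combined group at -0.18 (0.114), so no pairwise comparison of Rab11b passed with all arrays. In the F test over the 4 groups, 2 Rab genes passed, Rab11b (limma adjusted p = 0.0132) and Rab10 (0.0452), where 1.61% of all genes did.

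The Rab11b interaction kept its sign without each array in turn, at -0.51 to -0.42. Its adjusted p rose to between 0.0508 and 0.0526 without LCN13 5, TSC22D4 10, combined 13 or combined 14, and to 0.162 without both LCN13 arrays 5 and 6. Red blood cell markers were high in the same group in which Rab11b was low: the mean of the 3 genes measured of 7 listed, relative to the 12-array mean, was 0.57 to 0.77 on the combined arrays, -0.88 to 0.26 on control, -0.70 to 0.36 on LCN13 and -0.12 to 0.32 on TSC22D4 arrays. None of the 3 passed in the combined group against control or in the interaction. Among them Slc4a1, the anion exchanger of red blood cells, read 7.81 to 8.00 on combined arrays and 6.32 to 7.34 on the 9 others. The other red blood cell genes overlapped: Alas2 read 10.69 to 11.08 against 8.29 to 10.75, and Hbb-bs 6.08 to 6.30 against 5.80 to 6.15. The 12 mesothelial and epithelial markers ran from -0.76 to -0.03 in the interaction (median -0.42), and 0 passed. Of the interferon-stimulated genes, 20 of 26 were called higher in the interaction, where 0.397% of all genes passed in either direction. Of 10 skeletal and smooth muscle markers, 1 passed there, the muscle filament gene Des, at -0.45 (limma adjusted p = 0.018), with 9.21 to 9.30 on control arrays, 9.38 to 9.51 on combined arrays and 9.47 to 9.63 on the others. The 10 muscle markers ran from -0.45 to 0.075 in the interaction, with a median of -0.04. The part of these marker and interferon-stimulated genes in the Rab11b interaction was not tested. Rab11a itself lay between 10.20 and 10.40, with an interaction of -0.05 (CI -0.208 to 0.10).

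**Figure D2:**
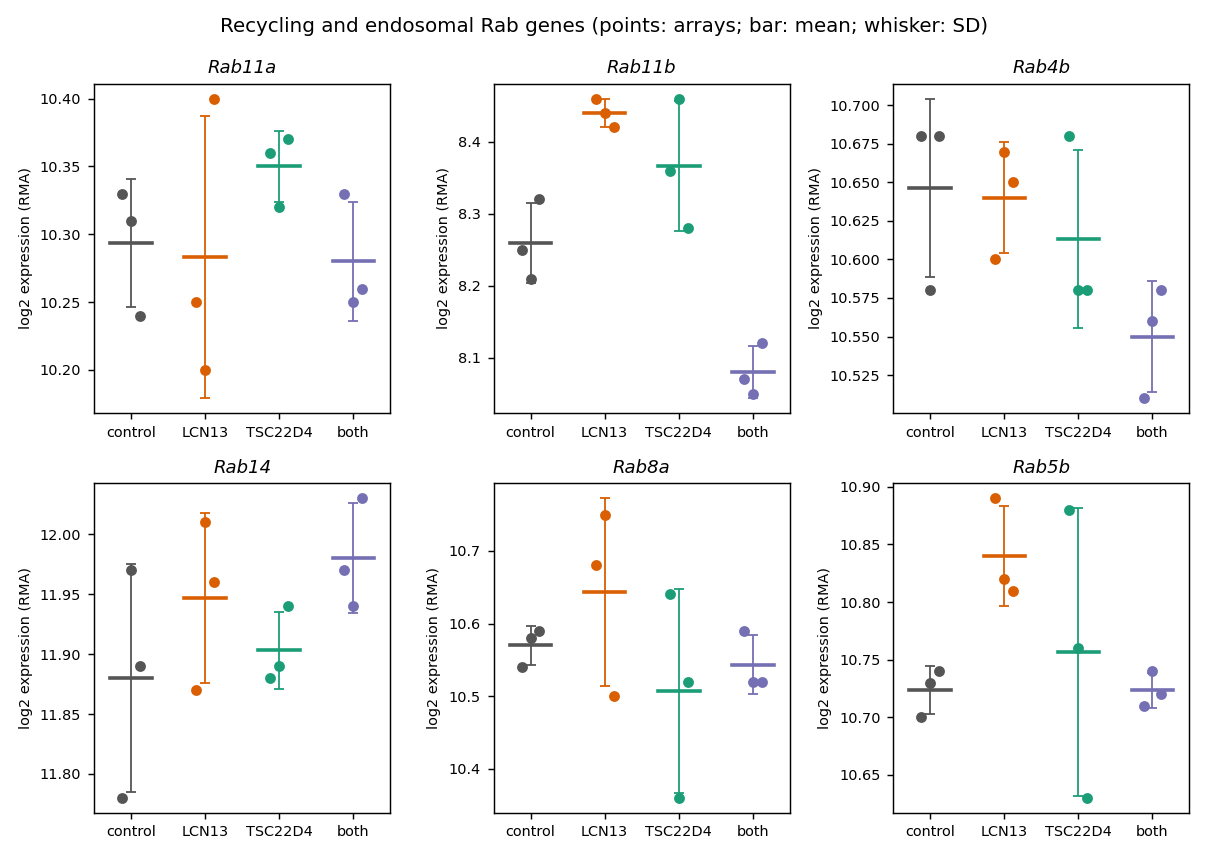
Log2 expression (RMA, y axis, scaled per gene) of 6 recycling and endosomal Rab genes on each array (points), with mean (bar) and SD (whisker) for the control, LCN13, TSC22D4 and combined (both) groups of 3. Rab11b is the gene whose combined arrays (8.05 to 8.12) are separated from all others; Rab11a spans 10.20 to 10.40 with all groups overlapping.

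Among the 14 Rab genes linked to GLUT4 traffic, the 13 besides Rab10 passed in no comparison with control, and the 13 besides Rab11b passed no test of the interaction. Rab8a and Rab13, which act in GLUT4 translocation in muscle cells and are close relatives of Rab10, differed from control by -0.06 (CI -0.229 to 0.106) and -0.14 (CI -0.356 to 0.075) with the TSC22D4 shRNA. With both shRNAs they stood at -0.03 (CI -0.194 to 0.141) and -0.09 (CI -0.304 to 0.127). With the LCN13 shRNA they stood at 0.07 (CI -0.093 to 0.242) and -0.07 (CI -0.288 to 0.143). Rab8b lay at -0.06, -0.04 and -0.02 with TSC22D4, LCN13 and both shRNAs. The intervals of Rab8a and Rab13 include 0 in all 3 comparisons. Rab14, which acts between endosomes and the trans-Golgi network, differed by 0.02, 0.06 and 0.10 with TSC22D4, LCN13 and both shRNAs. Rab4b, of fast recycling from early endosomes, stood at -0.10 in the combined group (CI -0.185 to -0.012, limma adjusted p = 0.370), and Rab4a at 0.06. Rab28, identified in GLUT4 traffic of adipocytes, ranged over the 12 arrays from 7.57 to 8.08 and differed by 0.14 with the LCN13 shRNA (CI -0.102 to 0.386). Rab35, of endocytic recycling, read 10.38, 10.22 and 10.51 on control arrays and 10.58, 10.51 and 10.33 on LCN13 arrays. It read 10.11, 10.30 and 10.25 on TSC22D4 arrays and 10.15, 10.15 and 10.26 on combined arrays. All 6 arrays with the TSC22D4 shRNA lay below the arrays without it, except for control 2, which lay among them. The averaged TSC22D4 difference of Rab35 was -0.22 (CI -0.356 to -0.082, limma adjusted p = 0.124).

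**Figure D3:**
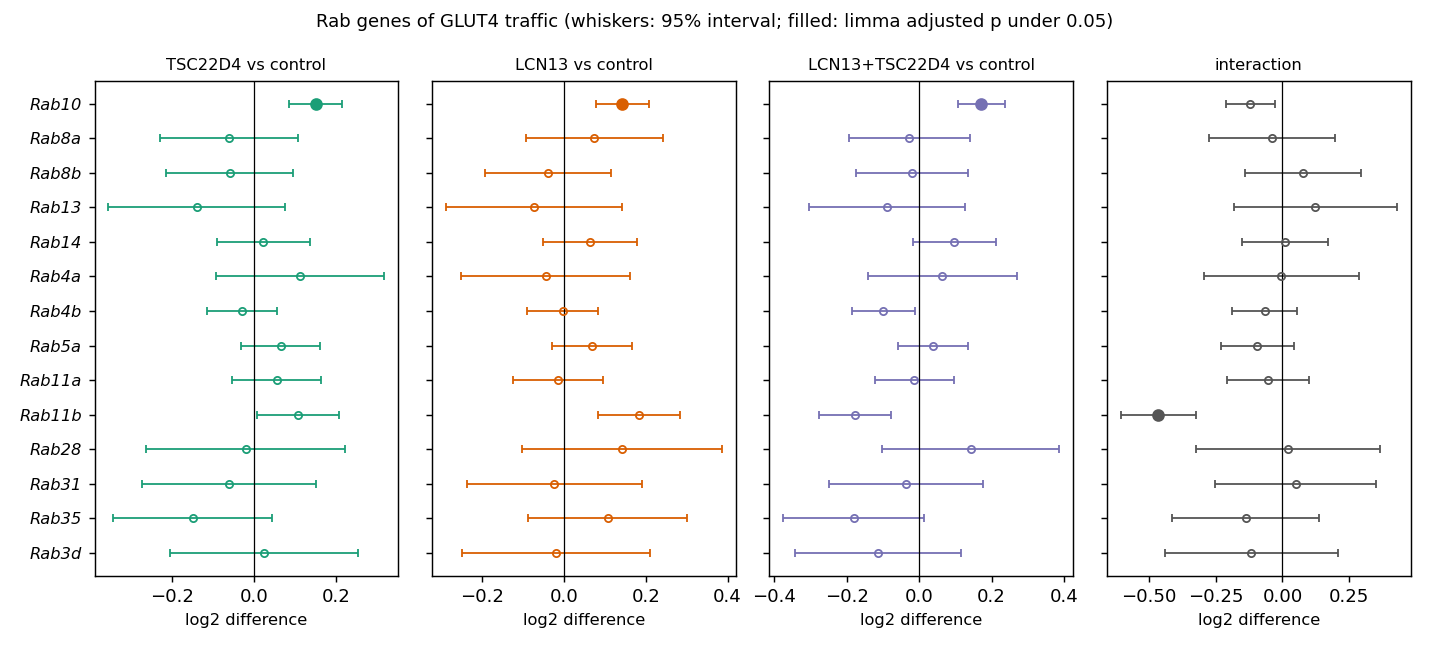
Log2 differences (x axis, points) with 95% confidence intervals (lines) for the 14 Rab genes of GLUT4 traffic in the 3 comparisons with control and in the interaction. The Rab10 intervals against control start at 0.085, 0.078 and 0.107 for TSC22D4, LCN13 and both shRNAs, and the Rab11b interaction of -0.47 is the one that passed.

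Of the 15 Rab genes of the endoplasmic reticulum and Golgi, 0 passed against control. Rab30, a Golgi Rab, read 7.94, 7.56 and 7.46 on control arrays and 7.86, 7.59 and 8.12 on LCN13 arrays. It read 8.24, 8.39 and 8.21 on TSC22D4 arrays and 8.10, 8.08 and 8.22 on combined arrays. The TSC22D4 arrays were above every array without that shRNA, and the combined arrays were above all control arrays but overlapped with LCN13 8. The differences from control were 0.63 (CI 0.299 to 0.956, limma adjusted p = 0.0958) with TSC22D4 and 0.48 (0.206) with both shRNAs, and the averaged TSC22D4 difference was 0.45 (0.0717). The averaged value passed when dim genes were left out (adjusted p = 0.0275), with array weights (0.0184) and with the trend and robust prior (0.0326). Under the same 3 settings the TSC22D4 difference from control passed too (adjusted p 0.0322, 0.0192 and 0.0362). Of the 12 fits that left out 1 array, the averaged Rab30 value passed in only 2 (adjusted p up to 0.156). Rab19 differed from control by -0.30, -0.43 and -0.44 with TSC22D4, LCN13 and both shRNAs (limma adjusted p 0.178 or higher). Without control 1 it passed with LCN13 (-0.59, limma adjusted p = 0.0155) and with both shRNAs (-0.59, 0.0149). The averaged LCN13 difference of Rab19 passed in only 1 of the 12 fits that left out 1 array (adjusted p up to 0.37). The control arrays 1, 2 and 3 of Rab19 read 6.80, 7.20 and 7.35, and the 9 others 6.56 to 6.89. The macrophage marker mean was 0.03, 0.38 and 0.23 on the same control arrays, and its part in the Rab19 values was not tested. Rab6a, of retrograde Golgi traffic, differed by 0.24 with the LCN13 shRNA (limma adjusted p = 0.115) and Rab18, a Rab of lipid droplets and the endoplasmic reticulum, by 0.18 (0.181). Rab6b ranged from 6.94 to 7.86 over the arrays, and within the LCN13 group read 7.78, 7.77 and 6.94 where the mesothelial and epithelial marker mean was 0.58, 0.62 and -0.02. The part of those markers in its spread was not tested. Rab1a and Rab1b, of transport from the endoplasmic reticulum to the Golgi, stayed within 0.16 and 0.11 over all arrays.

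Of the 9 Rab genes of late endosomes, lysosomes and autophagy, 0 passed against control. Rab32, which acts at lysosome-related organelles, read 10.08, 10.03 and 9.82 on control arrays and 10.12, 9.99 and 10.20 on LCN13 arrays. It read 10.33, 10.39 and 10.45 on TSC22D4 arrays and 10.07, 10.01 and 10.33 on combined arrays. The TSC22D4 arrays lay above all 9 others, TSC22D4 10 by less than the printed decimals over combined 16. TSC22D4 differed from control by 0.41 (CI 0.201 to 0.626, limma adjusted p = 0.0899), and it passed with dim genes left out (0.0407) and with the trend and robust prior (0.0446). Of the 12 fits that left out 1 array, this Rab32 difference passed in only 1 (adjusted p up to 0.228). Rab27b, of regulated secretion, likewise had its TSC22D4 arrays (6.14 to 6.18) above all 9 others, a pattern found for 1.43% of all genes. Its 12-array mean was 6.07, below the median gene mean of 6.36 and near the lower end of the scale. Against the LCN13 group Rab27b differed by 0.16 (limma adjusted p = 0.0880). Rab12, of lysosomal and autophagic traffic, stood at 0.21 in the combined group (limma adjusted p = 0.210). Rab29 stood at 0.22 in TSC22D4 against LCN13 (0.130), and Rab15 at 0.39 in the combined group against LCN13 (0.338). Rab7, the late endosome Rab, lay between 13.42 and 13.61, with differences of 0.09, 0.09 and 0.08. Rab7b, which lies mostly between endosomes and the Golgi, stood at -0.07, -0.16 and -0.11. Rab9 and Rab9b, of late endosome to Golgi traffic, differed by 0.17 and 0.12 with the TSC22D4 shRNA.

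The 6 early endosome genes passed in no comparison with control. Rab5a, Rab5b and Rab5c, which mark early endosomes, differed by 0.07, 0.12 and -0.06 with the LCN13 shRNA and by 0.04, 0.00 and -0.11 in the combined group. The 9 secretion genes likewise passed in none. Of the Rab3 group of exocytic Rabs, Rab3a had an interaction of -0.41 (CI -0.825 to 0.007, limma adjusted p = 0.706), with single arrays between 7.30 and 8.01. Rab3b, Rab3c and Rab3d differed from control by at most 0.11 in size in any of the 3 comparisons. Rab27a differed by 0.24 between TSC22D4 and LCN13 (limma adjusted p = 0.229), and Rab33a and Rab33b, of Golgi and autophagosome traffic, stayed within 0.12 and 0.22 over all arrays.

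**Figure D4:**
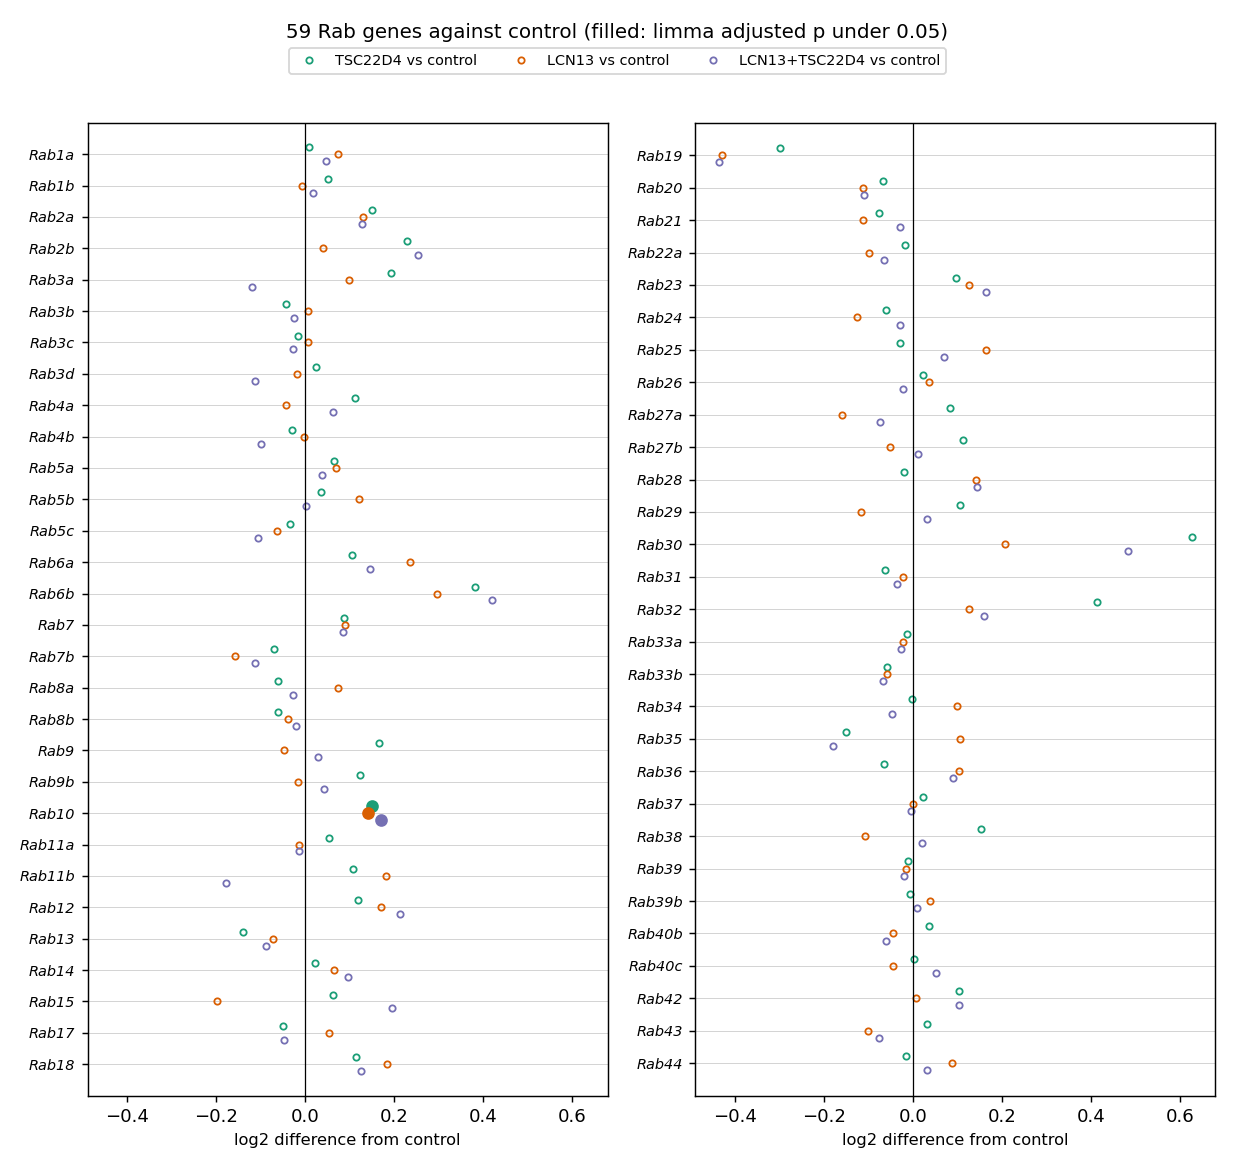
Log2 differences from control (x axis) of all 59 Rab genes in the TSC22D4, LCN13 and combined groups, with filled points for a limma adjusted p under 0.05. Rab10 has the 3 filled points (0.15, 0.14 and 0.17), and the widest differences are those of Rab30 (0.63) and Rab19 (-0.44).

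Comparisons of shRNA groups with each other, and the averaged effects, called no Rab gene. In the combined group against LCN13, 9 Rab genes (15.3%, beside 10.7% of all genes) had an unadjusted p under 0.05 and 0.00863% of all genes passed after adjustment. In the combined group against TSC22D4, 4 had an unadjusted p under 0.05 (6.78%, beside 6.91% of all genes) and 0.0% of genes passed. In TSC22D4 against LCN13, 9 had an unadjusted p under 0.05 (15.3%, beside 17.7% of all genes) and 1.03% of genes passed, 239 genes that became 2 without LCN13 array 5. For the averaged TSC22D4 effect it was 12 Rab genes (20.3%, beside 16.1% of all genes) with 1.39% of genes passing, and for the averaged LCN13 effect 9 (15.3%, beside 13.7%) with 1.08% passing. In the interaction, 39 of the 59 Rab genes had a value below 0 (33.9% above 0, beside 48.5% of all genes) and the median was -0.03 beside 0.00 for all genes. The Rab genes with an unadjusted p under 0.05 there numbered 6, all below 0 (10.2%, beside 7.08% of all genes).

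Regulators of Rab proteins were measured for 54 genes. With the LCN13 shRNA against control 2 rose and 2 fell, where 1.44% of all genes passed, and with TSC22D4 alone and with both shRNAs 0 passed. An unadjusted p under 0.05 was reached by 8 regulators with TSC22D4, 14 with LCN13 and 15 with both shRNAs, beside 11.8%, 12.6% and 11.0% of all genes. Rabgap1l, a Rab GTPase-activating protein, read 8.01, 7.98 and 8.09 on control arrays and 8.30, 8.29 and 8.31 on LCN13 arrays. It rose by 0.27 (CI 0.170 to 0.373, limma adjusted p = 0.0198), and differed by -0.04 with TSC22D4 and 0.14 with both shRNAs. Gdi2, a GDI protein that holds Rabs in the cytosol, read 12.56, 12.48 and 12.53 on control arrays and 12.79, 12.66 and 12.68 on LCN13 arrays. It rose by 0.18 with the LCN13 shRNA (limma adjusted p = 0.0260), and stood at 0.15 (0.0815) and 0.13 (0.0990) in the other groups. Tbc1d2, a Rab7 GTPase-activating protein, fell by 0.20 on the log2 scale with LCN13 (limma adjusted p = 0.0305), and Dennd1c, a Rab35 exchange factor, fell by 0.60 (0.0423). Dennd1c read 8.90 to 9.36 on control arrays and 8.46 to 8.58 on LCN13 arrays. Between the TSC22D4 and LCN13 groups Rabgap1l differed by -0.31 (limma adjusted p = 0.0302), and for the averaged LCN13 effect it stood at 0.23 (0.0110). Of 48 effectors, 1 passed with LCN13, 1 with both shRNAs and 0 with TSC22D4 against control, where 1.44%, 1.34% and 1.17% of all genes did. An unadjusted p under 0.05 was found for 7 of the 48 effectors with TSC22D4, 12 with LCN13 and 10 with both shRNAs, beside 11.8%, 12.6% and 11.0% of all genes. Ehbp1, which binds Rab8 and Rab10 and is linked to GLUT4 traffic in adipocytes, rose by 0.33 with LCN13 (limma adjusted p = 0.0452). Appl1, a Rab5 effector that also binds adiponectin receptors, rose by 0.17 in the combined group (limma adjusted p = 0.0486). For the averaged LCN13 effect Appl1 stood at 0.14 (0.0245) and Dennd1c at -0.44 (0.0457). Without LCN13 arrays 5 and 6, none of these 5 calls against control with the LCN13 shRNA passed (adjusted p 0.136 to 0.467), with values of 0.28 for Rabgap1l, 0.15 for Gdi2, -0.18 for Tbc1d2, -0.66 for Dennd1c and 0.25 for Ehbp1. Nor did Rabgap1l between TSC22D4 and LCN13 (adjusted p = 0.429) or the averaged LCN13 effects of Rabgap1l (0.119), Appl1 (0.209) and Dennd1c (0.216), or Appl1 in the combined group (0.109). Of the 12 fits that left out 1 array, the LCN13 call against control was lost in 10 for Dennd1c, 9 for Ehbp1, 9 for Tbc1d2, 5 for Rabgap1l and 3 for Gdi2. The combined group's Appl1 call was lost in 10, the Rabgap1l call between TSC22D4 and LCN13 in 5, and the averaged LCN13 calls of Dennd1c, Appl1 and Rabgap1l in 9, 7 and 0. Of 39 genes of GLUT4 vesicles and exocytosis, Ehbp1 was the 1 that passed against control in any shRNA group (1.44% of all genes passed with LCN13), and 7, 9 and 10 had an unadjusted p under 0.05 with TSC22D4, LCN13 and both shRNAs (11.8%, 12.6% and 11.0% of all genes). Slc2a4 differed by -0.14, -0.22 and -0.21 with TSC22D4, LCN13 and both shRNAs, and its 95% interval in the TSC22D4 comparison ran from -0.609 to 0.333. Tbc1d4, whose product turns Rab10 off until insulin acts, stood at 0.13 with the TSC22D4 shRNA (limma adjusted p = 0.199), and Dennd4c, the Rab10 exchange factor of adipocytes, at -0.11, -0.10 and 0.01.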

How the data were processed

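Biotin-labelled cDNA from total RNA was put on Affymetrix arrays, per the labels' protocols. The authors deposited 1 log2 value per probe set and array, made with RMA per the submitters' processing notes. No source used here gives its version, the array's probe set definition or a genome build. Sorted columns differ by at most 0.00188, so a shift shared by most genes was removed before deposit. Of 25206 probe sets, 23185 had 1 gene symbol and 2021 none. Symbols came from the platform annotation and a GRCm38.p6 gene table, and both gave the same 59 Rab genes. The Rab paralogues are similar in sequence, and shared probe signal between them was not tested.

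Genes were tested in R 4.3.3 with limma 3.58.1 (lmFit, contrasts.fit and eBayes), using all 12 arrays with 1 mean per group and no filter on dim genes. A gene is called, or passes, at a two-sided Benjamini-Hochberg adjusted p under 0.05 over all 23185 genes. The code was tested on simulated data. The comparisons were the 6 pairs of groups, each shRNA's effect averaged over both states of the other, the interaction and a moderated F test. Replicates were separate animals, per the labels. The rule named called Rab genes, the 3 with the smallest p in each comparison, the GLUT4 Rab list, paralogue pairs and called genes of 3 lists of Rab regulators, effectors and GLUT4 vesicle genes. The members and lists were chosen with earlier results of these data known. Alternatives were a filter on dim genes, adjustment over all probe sets, array weights, a trend and robust prior, median centring, only the 6 arrays compared and leaving out each array; leaving out LCN13 arrays 5 and 6 together was added after seeing the data.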

Additional observations from a re-analysis of the deposited data

Results flagged for a closer look

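The TSC22D4 difference in Rab11b differed between the LCN13 states, with an interaction of -0.47 on the log2 scale by limma's test of the difference itself (adjusted p = 0.0148). The TSC22D4 group stood 0.11 from control without the LCN13 shRNA, and the combined group -0.36 from the LCN13 group with it. Neither of these differences passed with all arrays. The interaction call was lost in 4 of the 12 fits that left out 1 array, and with the trend and robust prior.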

How the results depend on the processing

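No paired analysis was possible because no replicate number is shared between groups. The number of Rab genes called moved as follows. For TSC22D4 against control, where 1 was called, it was 2 with dim genes left out, with the trend and robust prior and after median centring, 3 with array weights, and 0 with only the 6 arrays compared. The genes were Rab30 and Rab32 with dim genes left out and with the trend and robust prior, Rab10 and Rab2a after centring, and Rab10, Rab2a and Rab30 with array weights. For LCN13 against control it went from 1 to 0 under the dim filter, the trend and robust prior, centring, the 6 arrays, and without LCN13 arrays 5 and 6. For both shRNAs against control it went from 1 to 0 under the dim filter, the trend and robust prior and the 6 arrays. Array weights gave 1 in the combined group against LCN13, 1 in TSC22D4 against LCN13 and 2 for the averaged TSC22D4 effect, against 0 in each as reported, and that averaged effect gave 1 under the dim filter and the trend and robust prior. The interaction gave 0 under the trend and robust prior and without LCN13 5 and 6, and the F test gave 1 under the dim filter and 0 under the other 2, and 3 in place of 2 with array weights (Rab30 added). With array weights LCN13 against control again gave 1, but Rab11b (0.21, limma adjusted p = 0.0300) in place of Rab10. With LCN13 arrays 5 and 6 left out the lone LCN13 array is assumed to vary like the other groups. The cause was not tested.

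Leaving out 1 array at a time gave 0 to 1 Rab genes in each comparison with control, in the combined group against LCN13, in the averaged LCN13 effect and in the interaction, 0 to 2 in the averaged TSC22D4 effect and the F test, and 0 to 0 in the combined group against TSC22D4 and in TSC22D4 against LCN13. The gene called was not always the same. For LCN13 against control it was Rab10 without LCN13 5, Rab6a without TSC22D4 11 and Rab19 without control 1. Over all genes, leaving out 1 array gave counts of 153 to 350 (all arrays 272) for TSC22D4 against control, 205 to 426 (all arrays 333) for LCN13, 165 to 376 (all arrays 311) for both, 2 to 582 (all arrays 239) for TSC22D4 against LCN13, 0 to 94 (all arrays 2) for the combined group against LCN13, and 0 to 4 (all arrays 0) against TSC22D4. It gave 132 to 718 (all arrays 323) for the averaged TSC22D4 effect, 135 to 389 (all arrays 251) for LCN13, 47 to 104 (all arrays 92) for the interaction and 209 to 531 (all arrays 374) for the F test. TSC22D4 against control gave 142 with the 6 arrays and 447 with array weights. For the interaction 92 genes became 35 without LCN13 arrays 5 and 6. Single-gene results numbered 27. The 4 that passed had 75 alternatives, of which 31 kept the call and 44 lost it; the 23 that did not pass had 429, of which 406 stayed so and 23 gained a call. In 0 of these did the direction of a called value reverse. Signal near the lower end, where 14 Rab genes lie at or below the median gene mean, limits what can be seen for them.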
